A study of Mus musculus with 17 samples.

Results

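Adenocarcinomas of SPC/c-Raf mice were compared with dysplasias of the same transgenic line, gene by gene, to ask what separates a lung tumour from its precursor lesion. The comparison used 8 of the 17 arrays of the study, chosen by their tissue labels as 4 adenocarcinomas and 4 dysplasias. It covered the 14939 of 23238 transcript clusters that carried exactly 1 gene symbol. A transcript cluster is the array's unit for a gene, and its value is a log2 expression level, so that a difference of 1 is a 2-fold change. All 8 lesions carried the SPC/cRaf transgene, which is driven by the surfactant protein C promoter, active in alveolar epithelium, and none of them was wild type. The promoter is not known to act in the vessels, fibroblasts or blood cells of a lesion. Dysplasia replicates 1 to 4 came from animals of 6, 5, 6 and 6 months, all labelled male. Adenocarcinoma replicates 1 to 4 came from animals of 14, 11.5, 12 and 13 months, labelled male except for replicate 2. That array is labelled female, but its levels of the Y-linked genes Eif2s3y and Kdm5d, 9.12 and 7.59, were near those of the other adenocarcinomas, 9.13 to 9.42 and 7.56 to 7.79, which goes against the label. Dysplasia replicate 2 and adenocarcinoma replicate 4 each carry the names of 2 animals. No animal label was shared by the 2 groups. The ages of the groups did not overlap, so age and stage cannot be told apart. The other 9 arrays, 4 of unaltered lung from the dysplasia animals and 5 of wild type lung aged 7, 7, 11, 7 and 11 months, gave reference levels and added to the estimate of the spread.

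RAF kinases pass the signal of RAS to MEK and on to ERK, which switches on growth genes together with feedback genes that dampen the same pathway. Lung alveoli are lined by flat type I cells, which carry gas exchange, and cuboidal type II cells, which make surfactant. Both lie on a dense bed of capillaries held by fibroblasts, and the airways that lead to them are lined by secretory club cells and ciliated cells. The tissue was cut with a laser from stained frozen sections, and in RNA from such a piece fewer cells of a type and less RNA per cell cannot be told apart.

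The first principal component of all 17 arrays held 34.3% of the variance and placed the 4 adenocarcinomas together, at scores of 49.1 to 56.0, with the dysplasias at -1.2, 14.2, 29.9 and -0.1. Dysplasia replicate 3 therefore lay nearest to the tumours, as the plot of the components shows. It was the dysplasia closest to the adenocarcinoma mean in 1618 of the 2379 called transcript clusters (68.0%). The adenocarcinomas were the tightest of the groups, with a median SD of 0.11 over transcript clusters with 1 symbol, against 0.13 in the dysplasias. The median levels of the arrays spanned 6.67 to 6.85. They were 6.71 to 6.80 in the adenocarcinomas and 6.81 to 6.85 in the dysplasias, without overlap. With 4 arrays a group, the precision was limited. The standard errors below also depend on the spread within all 4 groups, which was estimated for each gene over the 17 arrays. The lower quartile of the values lay between 5.00 and 5.11 in the 8 lesion arrays, and falls that end below it, like rises that start below it, are limited by background.

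**Figure D1:**
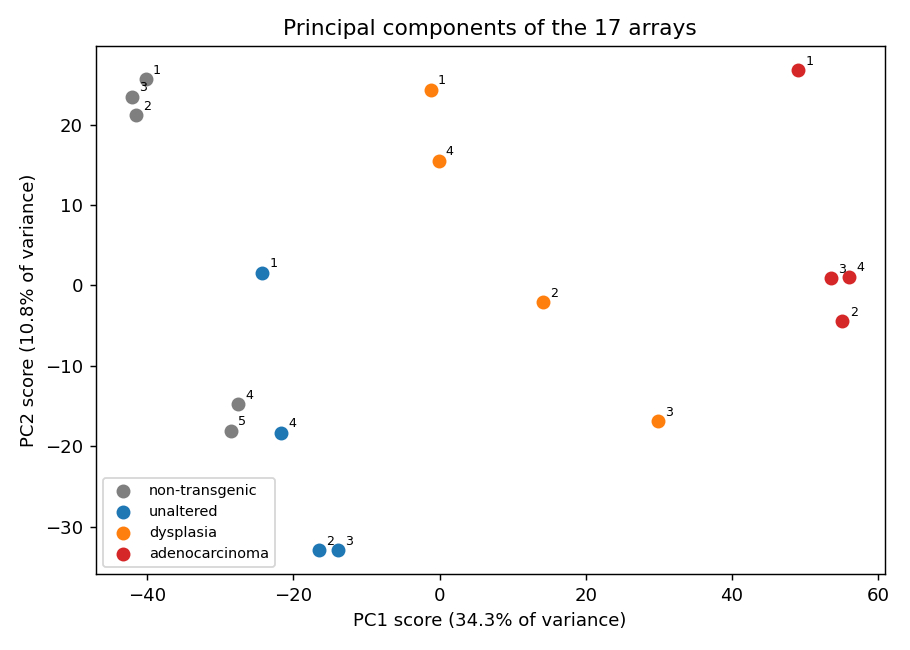
Scores of the 17 arrays on the first and second principal components, 1 point per array, numbered by replicate and coloured by group. The adenocarcinomas sit together at the right, and dysplasia replicate 3 (29.9 on the first component) is the dysplasia nearest to them.

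Both kinds of lesion showed markers of epithelium. Sftpc, the surfactant gene whose promoter drives the transgene, was at the top of the scale in every array, with means of 14.23 in adenocarcinoma and 14.21 in dysplasia. Epcam and Cdh1, adhesion genes of epithelium, had means of 11.34 and 11.17 in adenocarcinoma and 10.89 and 11.22 in dysplasia, against 9.57 and 10.51 in wild type lung. Neither group was pure epithelium: the endothelial gene Cdh5 was at 10.19 in adenocarcinoma and 11.62 in dysplasia, and the fibroblast gene Col1a2 at 9.55 and 9.54.

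Falls outnumbered rises and were much larger. Of 14939 transcript clusters, 2379 (15.9%) passed limma's moderated test at an adjusted p under 0.05, 855 of them (5.72%) higher and 1524 (10.2%) lower in adenocarcinoma. Only 42 (0.281%) rose at least 2-fold, and 395 (2.64%) fell at least 2-fold. The median log2 fold change of all of them was 0.02, with 5% below -0.70 and 5% above 0.41. Over all 23238 transcript clusters, 2780 passed (12.0%), 1042 higher (4.48%) and 1738 lower (7.48%), with 60 (0.258%) and 452 (1.95%) of at least 2-fold. With quantile normalization between arrays the split was 1260 higher and 1361 lower. The 855 rises became 548 without adenocarcinoma replicate 3, 514 without dysplasia replicate 1 and 525 without dysplasia replicate 4. With age as a covariate, 18 rises and 311 falls passed. Of 186 called genes taken from the largest changes, the lists and the model genes, 127 lost their call with age. Among them were Pecam1, Kdr, Mt1, Mt2, Cldn2, Trf and Cd177. Without the arrays that name 2 animals, 385 rises and 989 falls passed. Of the genes described below, C1qa, Cdkn2a, Cdt1, Cldn3, Cyp2f2, Erbb2, Esrp1, Esrp2, Etv4, Grem1, Itih2, Mmp2, Muc4, Rb1, Sdc1, Sftpb, Shc1, Snai2 and Wnt5a lost their calls in that setting. Separately from the test, the 4 adenocarcinoma values lay wholly above the 4 dysplasia values in 1771 transcript clusters (11.9%) and wholly below them in 2347 (15.7%), 4118 in all (27.6%). Over all transcript clusters these were 2170 (9.34%), 2745 (11.8%) and 4915 (21.2%).

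**Figure D2:**
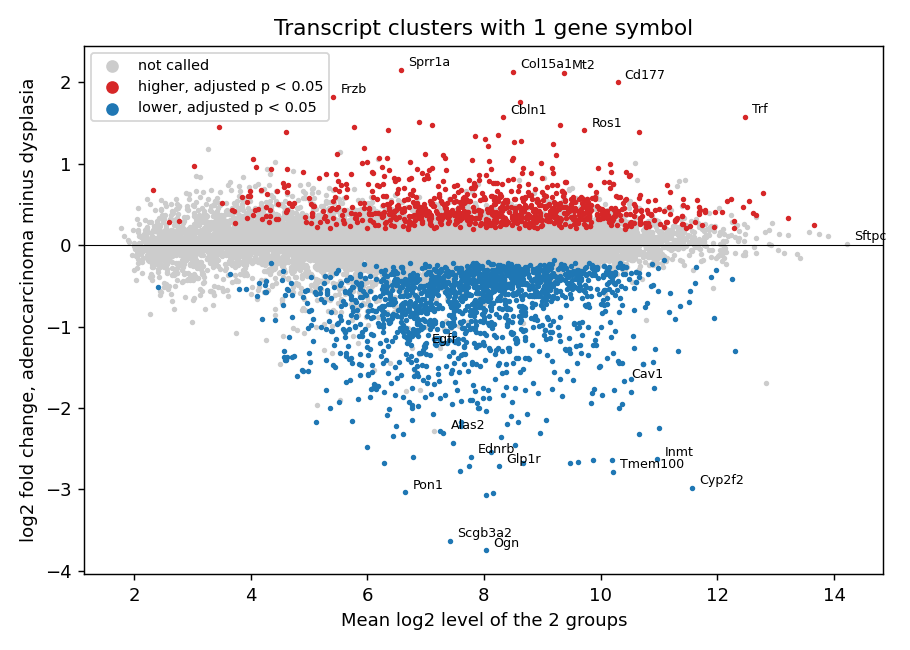
Log2 fold change, adenocarcinoma minus dysplasia, against the mean log2 level of both groups, 1 point per transcript cluster with 1 gene symbol. Red points passed as higher (855) and blue points as lower (1524) at an adjusted p under 0.05, and the lower arm reaches -3.75 while the upper ends at 2.15.

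Blood vessel genes fell almost as a whole. Of 41 measured endothelial genes, 36 were lower in adenocarcinoma and none was higher, with a median log2 fold change of -1.16, beside 10.2% lower and a median of 0.02 over all transcript clusters. The gene lists overlap, and 50 of their 347 called genes stand in more than 1 list. Lists and members were chosen with earlier results of these data known. A share above that over all transcript clusters, here and below, is therefore no test of a list. A count of 1 to 3 calls is fragile: of 43 such counts, 26 moved by over 1.5 times when 1 array was left out, 12 of them to 0 at the lowest. The mean level of the list was 8.58, 8.50, 8.53 and 8.59 in adenocarcinoma replicates 1 to 4 and 9.95, 9.72, 9.35 and 9.99 in dysplasia replicates 1 to 4. Every adenocarcinoma lay below every dysplasia, and dysplasia replicate 3 was the lowest of its group. Tmem100, a membrane protein gene of endothelium that acts downstream of the receptor ALK1, measured 9.26, 8.46, 8.75 and 8.83 in adenocarcinoma and 11.77, 11.54, 11.34 and 11.76 in dysplasia, a log2 fold change of -2.78 ± 0.14 (SE, 4 arrays against 4; adjusted p = 2.49e-08). Its wild type mean was 12.71. Ednrb, the endothelin B receptor, fell by 2.60 ± 0.17, from 9.40, 9.02, 8.42 and 9.47 to 6.55, 6.46, 6.40 and 6.50 (adjusted p = 1.34e-07). Hpgd, which breaks down prostaglandins, and Clec14a, a lectin of vessel walls, fell, with log2 fold changes of -2.64 ± 0.18 and -2.17 ± 0.25. Pecam1, an adhesion gene of all endothelium, fell by 1.12 ± 0.11, and Cdh5, the cadherin of endothelial junctions, fell by 1.43. Of 23 genes that mark capillary subtypes, 16 fell and 1 rose, a call that was lost without dysplasia replicate 1. Fibin, Ptprb and Tmcc2 had log2 fold changes of -2.67, -1.95 and -1.90, and Kit, a receptor of general capillary cells and mast cells, -1.45.

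Most VEGF, angiopoietin and semaphorin calls were falls, and BMP and TGF-beta genes moved both ways. Of 24 VEGF, angiopoietin and semaphorin genes, 13 fell and 1 rose. Kdr, Flt1 and Robo4 among them are members of the endothelial list too. Kdr, the main VEGF receptor, measured 9.20, 9.25, 9.22 and 9.32 in adenocarcinoma and 11.14, 10.69, 9.95 and 11.14 in dysplasia, a log2 fold change of -1.48 ± 0.19 (adjusted p = 8.54e-05). Angpt1, the ligand that steadies vessels through TIE2, fell by 1.44 ± 0.17, and the guidance genes Sema3a and Sema3e fell, with log2 fold changes of -1.77 ± 0.11 and -1.75 ± 0.15. Of 26 BMP and TGF-beta genes, 10 fell (38.5%) and 5 rose (19.2%), against 10.2% and 5.72% over all transcript clusters. Tmem100, the lowest of them, is the gene given above with the endothelial list, and Acvrl1 and Eng are shared with that list as well. Acvrl1, which encodes ALK1 itself, fell by 1.50 ± 0.13, and Chrdl1, a BMP antagonist, fell by 1.81 ± 0.18. Grem1, another BMP antagonist, went the other way at 1.20 ± 0.29 (adjusted p = 0.0114). It measured 6.76, 6.49, 6.20 and 6.69 in adenocarcinoma and 5.15, 4.99, 4.87 and 6.35 in dysplasia, where replicate 4 overlapped the tumours.

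Fibroblast genes gave the largest fall of the comparison. Of 38 measured alveolar fibroblast genes, 26 fell and 2 rose, with a median of -0.998. Ogn, a small matrix proteoglycan, measured 6.54, 6.05, 6.29 and 5.79 in adenocarcinoma and 10.29, 9.77, 9.21 and 10.38 in dysplasia, with 10.95 and 11.33 as the means of unaltered and wild type lung. That is a log2 fold change of -3.75 ± 0.22, or 13.4-fold (adjusted p = 7.92e-08). Inmt, a methyltransferase that is abundant in lung fibroblasts, fell from 12.74, 12.22, 11.60 and 12.58 to 9.77, 9.46, 9.75 and 9.66 (log2 fold change -2.63 ± 0.18). Dysplasia replicate 3 was the lowest of its group for both genes and still far above every adenocarcinoma. Itga8, an integrin of these fibroblasts, and Vegfd, a lymphatic growth factor, fell, with log2 fold changes of -2.67 ± 0.16 and -2.54 ± 0.18. Fn1, the fibronectin gene, rose by 0.74 ± 0.09 (adjusted p = 2.48e-05). The 2 rises became 1 without adenocarcinoma replicate 2, 3 or 4 or dysplasia replicate 1 or 4. Col1a2 did not pass at 0.01 ± 0.07 (adjusted p = 0.955), so the list did not move as a block.

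Smooth muscle and pericyte genes followed, with 12 of 23 lower and 2 higher. Myh11, the smooth muscle myosin, measured 6.98, 6.67, 6.67 and 6.75 in adenocarcinoma and 8.31, 8.20, 8.08 and 8.29 in dysplasia (log2 fold change -1.45 ± 0.21), and Hhip, a decoy receptor for hedgehog ligands, fell by 1.98 ± 0.20. The risers were Itga7, a laminin receptor, at 0.89 ± 0.07, and Rgs5, a pericyte regulator of G protein signals. The 2 transcript clusters of Rgs5 rose by 0.94 and 1.45, the latter from a dysplasia mean of 5.04, within the range of the lower quartiles. Among 16 mesothelial genes, 5 fell, led by Gpm6a at -2.22 ± 0.25. The defining gene Msln did not pass at -0.43 ± 0.29 (adjusted p = 0.404).

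Matrix genes divided. Of 28 collagen genes, 4 rose and 7 fell, and the 4 rises became 2 without dysplasia replicate 1. Col15a1, a basement membrane collagen, measured 9.81, 9.20, 9.60 and 9.65 in adenocarcinoma and 7.29, 7.45, 7.65 and 7.33 in dysplasia, a log2 fold change of 2.13 ± 0.15 or 4.39-fold (adjusted p = 2.62e-07). The wild type mean was 6.92, and the tumours stood clear of every dysplasia. Col18a1, its relative and the source of endostatin, rose by 0.78 ± 0.07. Col4a3, a basement membrane chain of the alveolar wall, fell by 0.97 ± 0.12, and Col6a2, of the microfibrils around cells, fell by 0.84 ± 0.09. Among 22 integrin and laminin genes, 11 fell (50%) and 3 rose (13.6%), with Lama2, a laminin chain, at -1.23 ± 0.10. Adamts4, a protease that cuts proteoglycans, rose by 0.82 ± 0.09, while Adamts5, Mmp28 and the gelatinase gene Mmp2 had log2 fold changes of -0.91, -0.96 and -0.91. In that list of 25 proteases and inhibitors, 4 rose (16%) and 5 fell (20%). The 4 rises became 2 without adenocarcinoma replicate 1 or 3 or dysplasia replicate 1, 2 or 4.

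**Figure D3:**
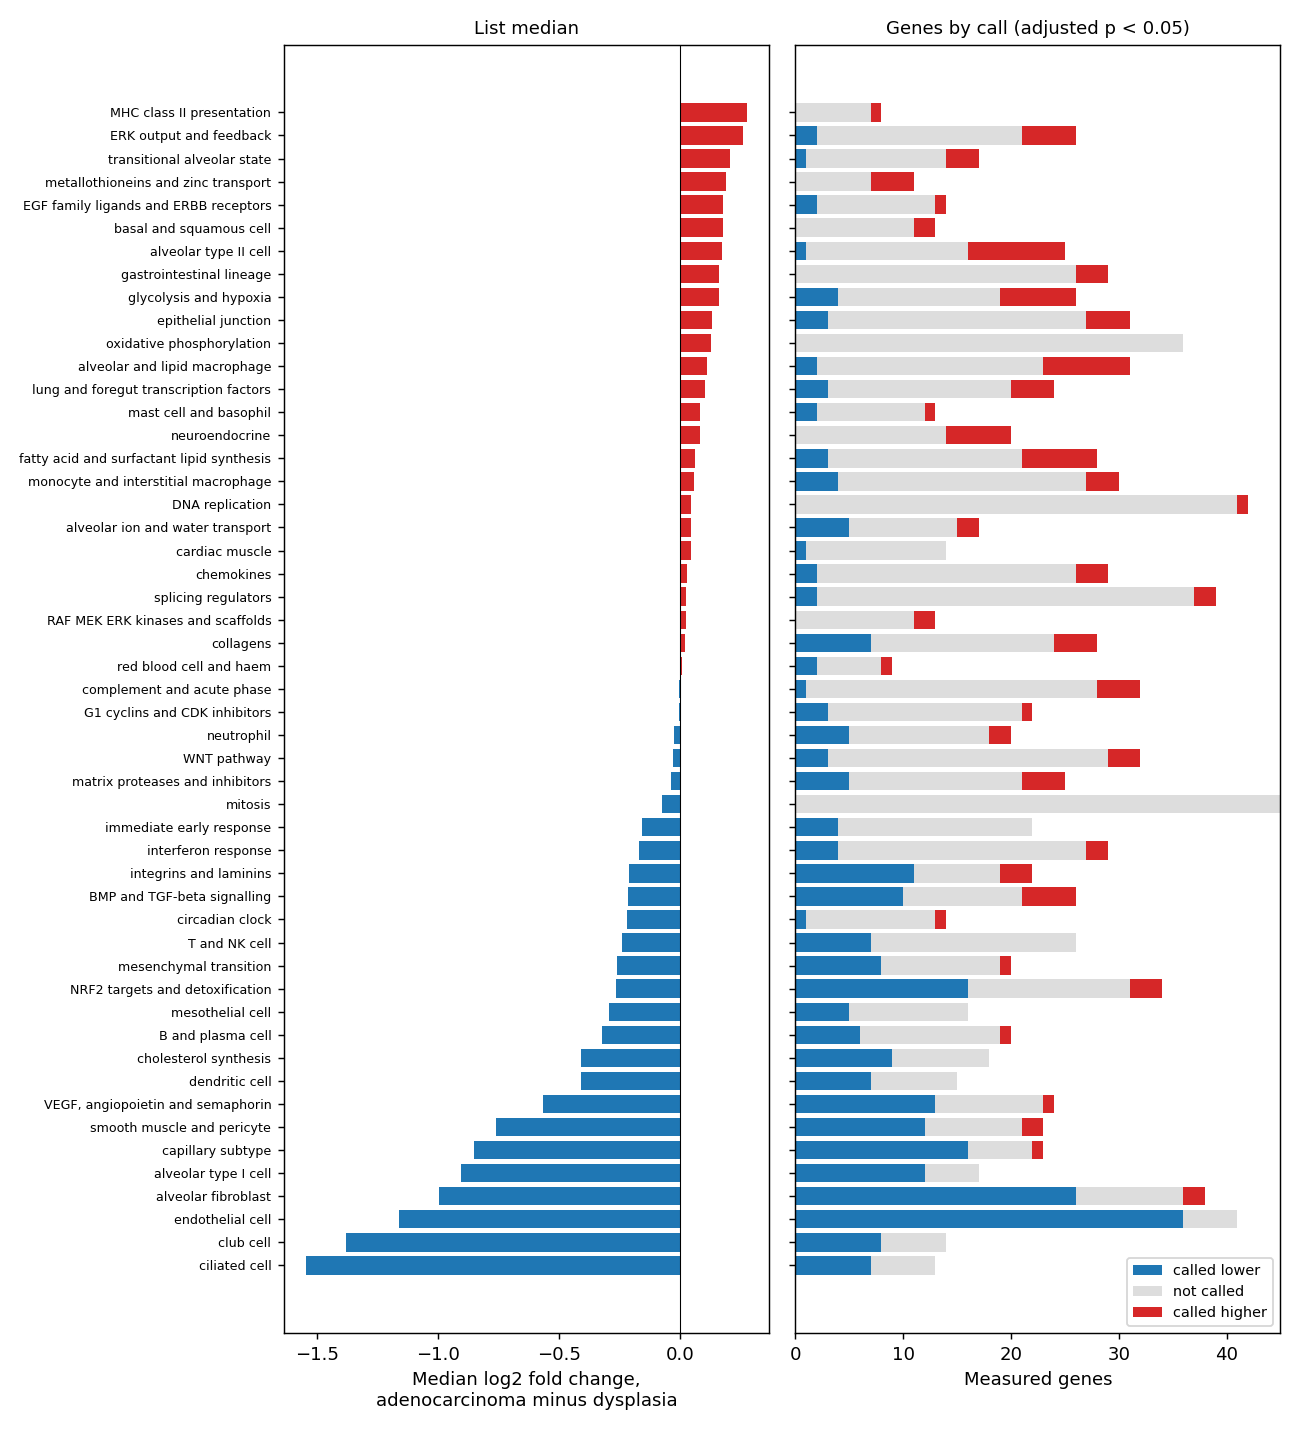
Left, median log2 fold change (adenocarcinoma minus dysplasia) of each gene list. Right, its measured genes by call at an adjusted p under 0.05. Endothelial genes have 36 of 41 called lower, and mitosis and oxidative phosphorylation genes have no call.

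Most type I cell genes fell, and the called type II genes were mostly small rises. Of 17 type I genes, 12 fell and none rose, with a median of -0.90. Cav1, the coat protein of caveolae in type I and endothelial cells, measured 9.57, 9.43, 9.60 and 9.64 in adenocarcinoma and 11.36, 11.15, 10.91 and 11.51 in dysplasia (log2 fold change -1.67 ± 0.11, adjusted p = 1.34e-07). Hopx, a homeodomain factor of type I cells, fell from 9.66, 9.59, 9.35 and 9.85 to 8.72, 8.69, 8.49 and 8.64 (log2 fold change -0.98 ± 0.10). Igfbp2, Spock2 and Rtkn2 fell, with log2 fold changes of -1.87 ± 0.17, -1.55 ± 0.14 and -1.39 ± 0.13. Ager, the most used marker of type I cells, did not follow: it measured 12.56, 12.65, 12.61 and 12.63 in adenocarcinoma and 12.70, 12.69, 12.70 and 12.77 in dysplasia, with no overlap but a log2 fold change of only -0.10 ± 0.05 (adjusted p = 0.291). The other defining gene, Pdpn, did not pass either, at -0.15 ± 0.11.

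Among 25 type II genes, 9 rose and 1 fell, with a median of 0.17. The 9 rises became 5 without adenocarcinoma replicate 3 or without dysplasia replicate 1 or 4. Sdc1, a cell surface proteoglycan, measured 11.73, 11.62, 11.73 and 11.80 in adenocarcinoma and 11.15, 11.27, 11.45 and 11.13 in dysplasia (log2 fold change 0.47 ± 0.11, adjusted p = 0.0101). Sftpb, needed to spread surfactant, rose by 0.24 ± 0.06 and lost its call without adenocarcinoma replicate 4 or dysplasia replicate 1 or 4 (adjusted p = 0.0523 to 0.0586). Sftpc at 0.02 ± 0.05 and Sftpa1 at 0.11 ± 0.07 did not pass (adjusted p = 0.857 and 0.363), with levels close to the top of the scale. Sftpc turned to -0.0541 and -0.0283 with cyclic loess and quantile scaling.

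Airway genes were lower as well. Of 14 club cell genes, 8 fell and none rose, with a median of -1.38. Cyp2f2, a cytochrome of club cells, measured 10.88, 8.85, 10.30 and 10.31 in adenocarcinoma and 13.12, 13.06, 12.94 and 13.12 in dysplasia, a log2 fold change of -2.98 ± 0.68 (adjusted p = 0.00866). The dysplasias lay close together, and adenocarcinoma replicate 2 was lowest. Scgb3a2, a secretoglobin of small airways, measured 6.03, 4.85, 5.72 and 5.82 against 9.33, 9.19, 9.14 and 9.29 (log2 fold change -3.63 ± 0.75, adjusted p = 0.00401). Scgb1a1, the defining secretoglobin of club cells, measured 13.05, 9.69, 12.65 and 12.59 against 13.72, 13.67, 13.66 and 13.70. It did not pass at -1.69 ± 0.58 (adjusted p = 0.0731), with adenocarcinoma replicate 2 far below the rest.

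Ciliated cell genes had the lowest median of all lists, at -1.54, with 7 of 13 lower. Their calls were unstable. Without any 1 of the adenocarcinomas or of dysplasia replicates 1 and 4, 3 or 4 passed, and without non-transgenic replicate 5, 11 did. Tppp3, a microtubule protein, measured 8.44, 8.13, 8.46 and 8.09 in adenocarcinoma and 10.03, 10.03, 9.96 and 10.20 in dysplasia (log2 fold change -1.77 ± 0.16, adjusted p = 2.29e-06). Foxj1, the master factor of cilia, did not pass at -1.0 ± 0.36 (adjusted p = 0.0928). The mean of the ciliated list was 5.77, 5.49, 5.62 and 5.61 in adenocarcinoma and 6.95, 7.01, 7.02 and 6.98 in dysplasia. It ran from 5.62 to 7.09 in unaltered and from 5.54 to 7.45 in wild type lung, and the club cell list from 7.90 to 9.57 and from 8.05 to 9.70. Airway signal thus varied widely among pieces without a lesion. Whether the dissected pieces differed in how much airway they held was not tested.

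**Figure D4:**
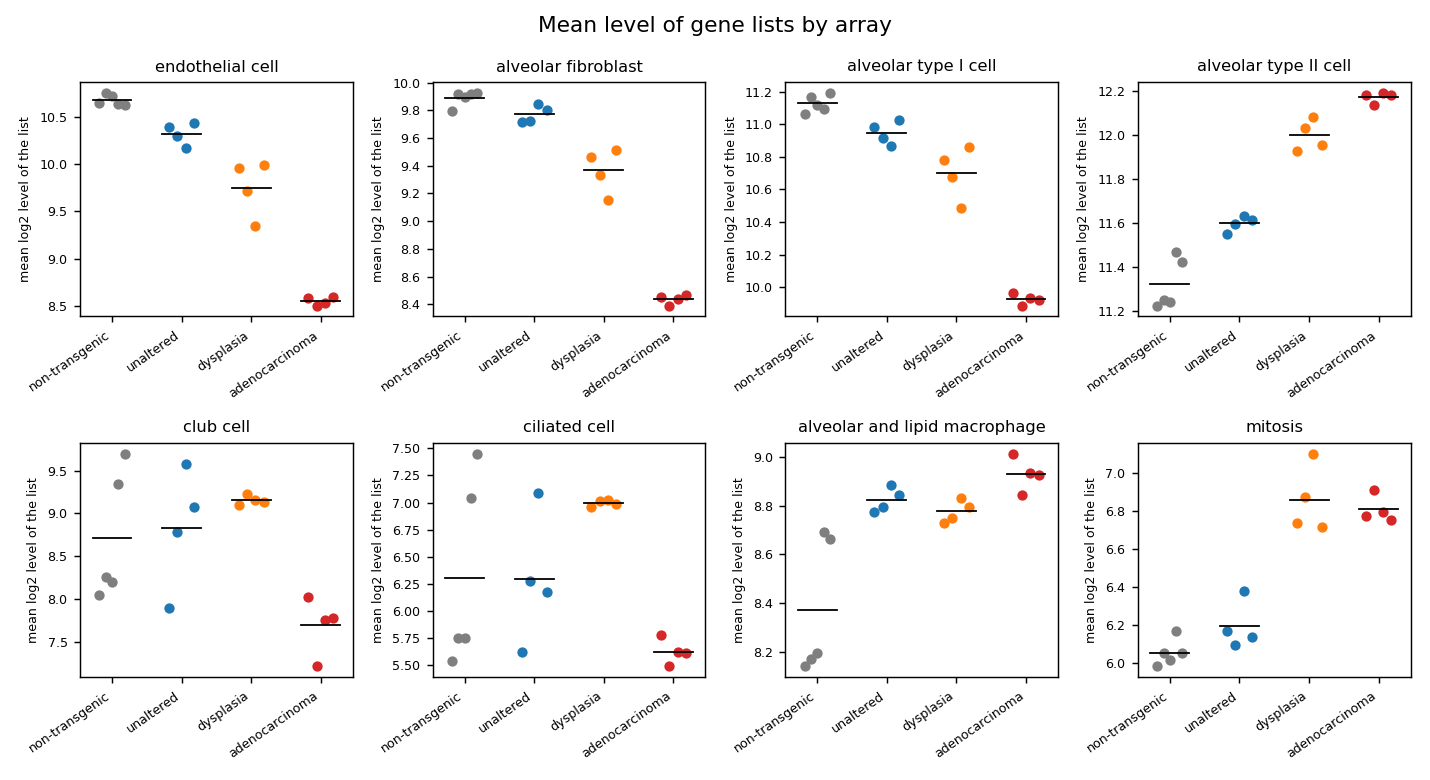
Mean log2 level of 8 gene lists in each of the 17 arrays, by group, with group means as bars. The adenocarcinomas lie below all dysplasias for endothelial, fibroblast, type I, club and ciliated genes, and the groups overlap for mitosis genes.

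The largest rise was that of Sprr1a, a small proline-rich protein of the cornified envelope that is also induced in injured epithelium. It measured 7.86, 7.60, 7.71 and 7.47 in adenocarcinoma and 5.45, 5.41, 6.08 and 5.09 in dysplasia, a log2 fold change of 2.15 ± 0.21 or 4.45-fold (adjusted p = 6.35e-06). The wild type mean was 5.27, near dysplasia replicates 1, 2 and 4, and no dysplasia reached the tumours. Ivl, the envelope protein involucrin, rose by 1.02 ± 0.18. Of 13 basal and squamous genes, only these 2 were called (15.4%, beside 5.72% higher over all transcript clusters), with 4 called without adenocarcinoma replicate 4. Cd177, a surface protein known from neutrophils, measured 11.25, 11.22, 11.28 and 11.40 against 8.93, 9.37, 9.76 and 9.09 (log2 fold change 2.0 ± 0.19, adjusted p = 4.98e-06), while 5 of 20 neutrophil genes fell and 2 rose. These neutrophil falls and rises were 25% and 10% of the list, beside 10.2% and 5.72% over all transcript clusters. The 5 falls became 3 without adenocarcinoma replicate 2 or dysplasia replicate 4. The 2 rises became 1 without adenocarcinoma replicate 2, 3 or 4 or dysplasia replicate 1 or 4. Csf3r, the receptor of the neutrophil growth factor, fell by 1.03 ± 0.15.

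Several secreted and surface proteins rose with it. Trf, transferrin, measured 13.25, 13.27, 13.29 and 13.24 in adenocarcinoma and 11.52, 11.70, 11.94 and 11.58 in dysplasia (log2 fold change 1.58 ± 0.16, adjusted p = 9.17e-06). Ros1, a receptor tyrosine kinase, rose by 1.41 ± 0.11, from 8.91, 9.02, 9.30 and 8.84 to 10.44, 10.46, 10.45 and 10.37, against a wild type mean of 6.08. Rbp4, the carrier of retinol, rose by 1.48 ± 0.30. Orm1, an acute phase protein, rose by 1.41 ± 0.27, and Lrg1, a glycoprotein of vessel growth and inflammation, by 0.86 ± 0.08. Fgg, a fibrinogen chain, did not pass at 0.00 ± 0.27 (adjusted p = 1). Among 32 complement and acute phase genes, 4 rose (12.5%) and 1 fell (3.12%), beside 5.72% and 10.2% over all transcript clusters. Ankrd22, Chl1, Itih2 and Qpct rose by 1.76 ± 0.19, 1.51 ± 0.17, 1.28 ± 0.30 and 1.27 ± 0.28.

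**Figure D5:**
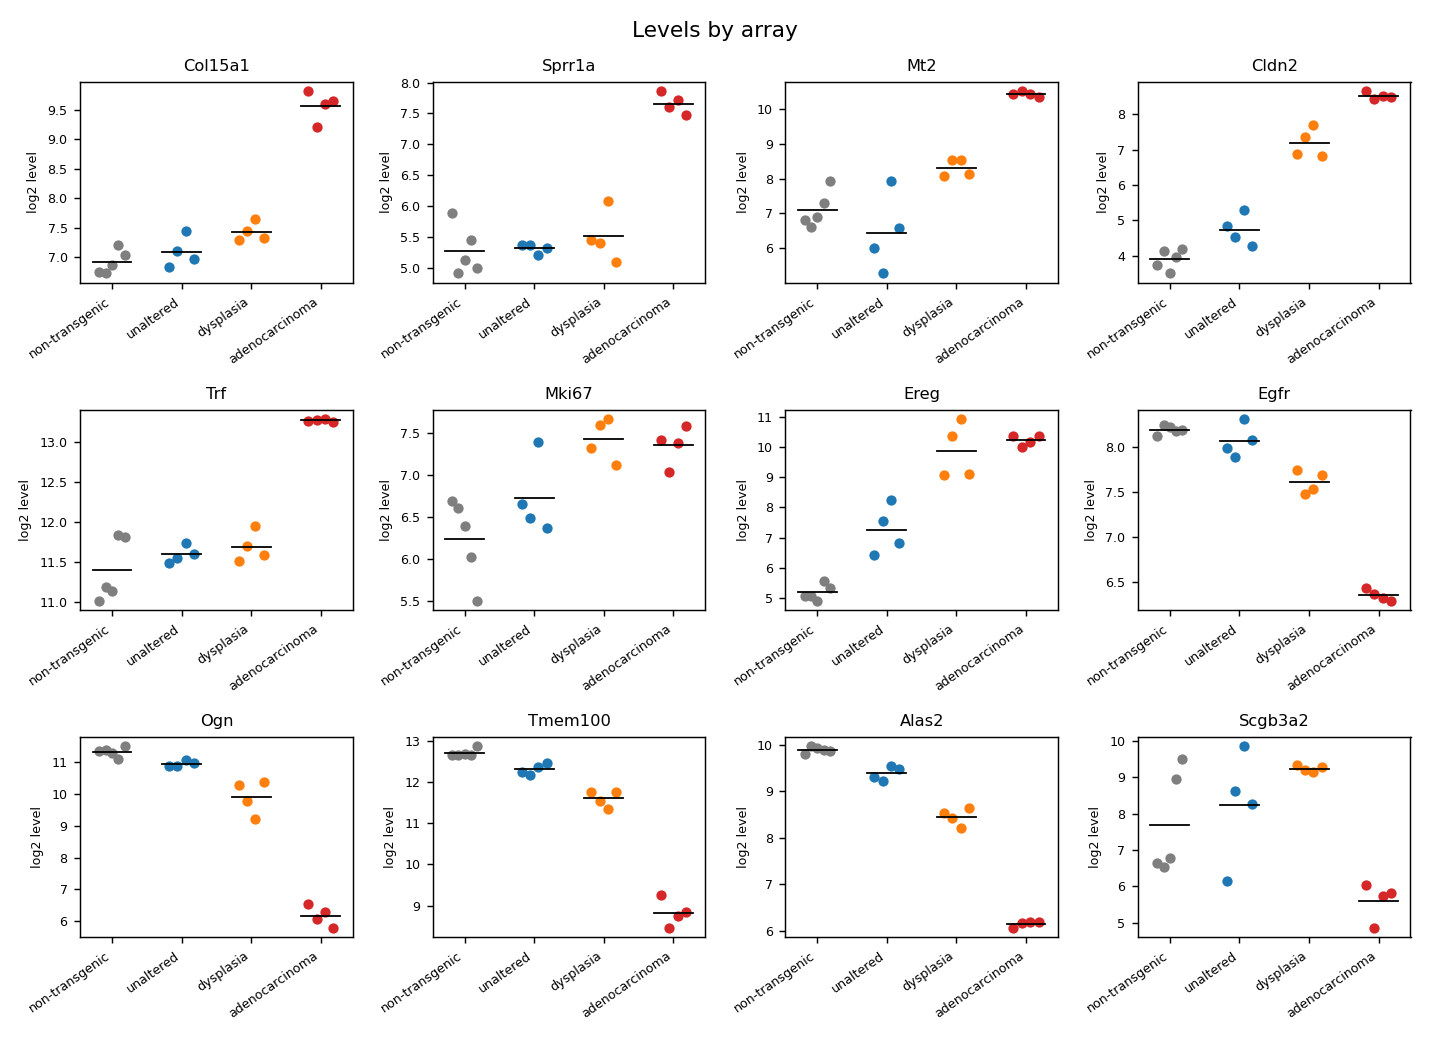
Log2 level of 12 genes in each array by group, 1 point per array, with group means as bars; the vertical scales differ. Col15a1, Sprr1a and Trf are high in the adenocarcinomas alone, Cldn2 is already raised in dysplasia, and the lesion groups overlap for Mki67 and Ereg.

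The metallothionein genes Mt1 and Mt2 rose. These small proteins bind zinc and copper, and their genes answer to metal through the factor MTF1. Mt2 measured 10.44, 10.51, 10.43 and 10.36 in adenocarcinoma and 8.07, 8.53, 8.53 and 8.13 in dysplasia, a log2 fold change of 2.12 ± 0.42 (adjusted p = 0.00311). Mt1 measured 11.24, 11.46, 11.34 and 11.38 against 9.69, 10.04, 10.41 and 9.72 (log2 fold change 1.39 ± 0.21, adjusted p = 0.000371). The wild type means were 7.10 and 9.22. Slc39a4, a zinc importer, rose by 0.37 ± 0.07, and 4 of the 11 genes of this list rose in all. The genes Mt2 and Mt1 neighbour each other on chromosome 8, and the 250 bases before the start that RefSeq annotates for each (GRCm38.p6, plus strand, chr8:94172368-94172617 and chr8:94178839-94179088) are shown because the pair rose together. Capitals mark the metal response core, searched as TGCGCNC and TGCACNC on both strands.
Mt2: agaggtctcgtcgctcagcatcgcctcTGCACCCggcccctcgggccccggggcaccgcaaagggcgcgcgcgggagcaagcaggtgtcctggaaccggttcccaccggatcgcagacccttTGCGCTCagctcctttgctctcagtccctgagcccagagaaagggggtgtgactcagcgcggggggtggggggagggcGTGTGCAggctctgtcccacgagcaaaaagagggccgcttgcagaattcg
Mt1: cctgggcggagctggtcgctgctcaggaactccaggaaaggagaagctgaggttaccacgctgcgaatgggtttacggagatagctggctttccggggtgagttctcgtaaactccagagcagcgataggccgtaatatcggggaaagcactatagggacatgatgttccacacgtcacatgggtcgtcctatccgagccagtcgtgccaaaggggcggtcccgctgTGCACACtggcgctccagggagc
The Mt2 window held 3 matches and the Mt1 window 1. Only the first start listed for each gene was used, and bases beyond it were not searched. The counts therefore describe these windows and do not compare the 2 promoters as a whole. At least 1 match stood in 21.4% of all 32851 promoter windows of that length, so a match by itself is common.

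Few genes of the gut lineage were called. Cldn2, a claudin of leaky epithelium, measured 8.65, 8.43, 8.52 and 8.50 in adenocarcinoma and 6.87, 7.35, 7.69 and 6.81 in dysplasia (log2 fold change 1.34 ± 0.21, adjusted p = 0.000513), against 3.91 in wild type lung. Hnf4a, a master factor of liver and gut, rose from 6.17, 6.55, 6.47 and 6.19 to 7.19, 7.23, 7.07 and 7.19 (log2 fold change 0.82 ± 0.11, adjusted p = 9.71e-05). Muc4, a membrane mucin, rose by 0.73 ± 0.18. These were the 3 called of 29 such genes (10.3%, beside 5.72% higher over all transcript clusters), and none fell. Without adenocarcinoma replicate 1, 5 were called. Gkn2, a stomach peptide, did not pass at 0.65 ± 0.31 (adjusted p = 0.215). Of 31 junction genes 4 rose (12.9%) and 3 fell (9.68%), beside 5.72% and 10.2% over all transcript clusters. The 4 rises became 2 without adenocarcinoma replicate 4 or dysplasia replicate 1, 2 or 4 and 7 without dysplasia replicate 3. Cldn3 rose by 0.75 ± 0.17, and Cldn5, the claudin of endothelium, fell by 1.82 ± 0.22. Cldn4 at 0.39 ± 0.24 and Epcam at 0.44 ± 0.17 did not pass. Neither gene's groups overlapped, but that held for 11.9% of transcript clusters with 1 symbol in the same direction.

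Neuroendocrine genes gave 6 rises among 20 (30%, beside 5.72% higher over all transcript clusters) and no fall. The 6 became 2 without adenocarcinoma replicate 1 or 3 or without dysplasia replicate 1. Ptprn2, a protein of secretory granules, was the firmest, at 8.86, 9.02, 8.91 and 8.91 in adenocarcinoma against 7.50, 7.59, 7.69 and 7.50 in dysplasia (log2 fold change 1.35 ± 0.08, adjusted p = 7.92e-08). Cbln1, a secreted synapse organiser, rose by 1.57 ± 0.32, from 6.84, 7.92, 8.40 and 6.98 to 9.19, 9.02, 9.06 and 9.14. Among 24 lung and foregut transcription factors, 4 rose (16.7%) and 3 fell (12.5%), beside 5.72% and 10.2% over all transcript clusters. Id2, an inhibitor of differentiation factors, and Ehf, an epithelial ETS factor, rose by 0.65 ± 0.14 and 0.59 ± 0.12. The 4 rises became 2 without any 1 adenocarcinoma, without dysplasia replicate 1, 2 or 4, or without unaltered replicate 2 or 4.

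Among EGF family genes, the receptor gene Egfr fell and its partner Erbb2 rose. Egfr measured 6.43, 6.38, 6.33 and 6.30 in adenocarcinoma and 7.74, 7.47, 7.53 and 7.69 in dysplasia, a log2 fold change of -1.25 ± 0.09 (adjusted p = 3.18e-07), with means of 8.06 and 8.18 in unaltered and wild type lung. Erbb2, its partner receptor, rose by 0.32 ± 0.08, from 9.12, 9.18, 9.18 and 9.19 to 9.46, 9.45, 9.51 and 9.54 (adjusted p = 0.0138). Like most of the named calls, that of Erbb2 was lost with age as a covariate. It was also lost without the arrays that name 2 animals. Nrg1, the ligand of ERBB3 and ERBB4, fell by 0.88 ± 0.11. Ereg, the ligand epiregulin, measured 10.35, 9.99, 10.17 and 10.38 against 9.08, 10.36, 10.94 and 9.12 and did not pass, at 0.35 ± 0.37 (adjusted p = 0.624). Dysplasia replicates 2 and 3 were at or above the level of the tumours, and replicates 1 and 4 below it. No other gene of the 14 passed.

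ERK output genes gave more rises than falls, and the number depended on single arrays. Of 26, 5 rose (19.2%, against 5.72% over all transcript clusters) and 2 fell (7.69%), with a median log2 fold change of 0.26 beside 0.02 over all. At an unadjusted p under 0.05, 11 were higher, and with array weights 13 passed limma's test as higher. Their rises numbered 2, 3, 3 and 1 without adenocarcinoma replicate 2, adenocarcinoma replicate 4, dysplasia replicate 1 and dysplasia replicate 4, and 10 without dysplasia replicate 3. The 2 falls became none without adenocarcinoma replicate 2 or 4 or dysplasia replicate 1, 2 or 4, and 1 without adenocarcinoma replicate 3, dysplasia replicate 3, non-transgenic replicate 2 or 3 or unaltered replicate 1 or 4. Etv4, an ETS factor induced by ERK, measured 7.83, 7.86, 7.62 and 8.13 in adenocarcinoma and 6.68, 7.36, 7.83 and 6.65 in dysplasia (log2 fold change 0.73 ± 0.20, adjusted p = 0.0277). Its call was lost without adenocarcinoma replicate 1, 2 or 4 or dysplasia replicate 1 or 4, at adjusted p of 0.0517 to 0.0981. The feedback genes Dusp6 and Spry2 had log2 fold changes of 0.30 ± 0.13 and 0.30 ± 0.13, and Spry4 and Etv5 -0.03 ± 0.10 and 0.05 ± 0.10. None of these 4 passed (adjusted p = 0.162, 0.166, 0.911 and 0.82), and Spry4 turned to 0.0258 with quantile scaling. For Dusp6 and Spry2, dysplasia replicate 3 reached the tumours, at 11.77 and 11.09. Among the 13 kinases and scaffolds of the pathway, Rin1, a RAS effector, rose by 0.51 ± 0.07. Shc1, an adaptor, rose by 0.57 ± 0.16, a call that was lost without any 1 adenocarcinoma or without dysplasia replicate 1 or 4 (adjusted p = 0.0572 to 0.106). Of 22 immediate early genes, 4 fell (18.2%, beside 10.2% lower over all transcript clusters) and none rose. Klf2, a flow-responsive factor of endothelium, fell by 0.78 ± 0.13, and Jun and Klf6 fell, with log2 fold changes of -0.61 ± 0.11 and -0.60 ± 0.10. Myc did not pass at 0.27 ± 0.20 (adjusted p = 0.454).

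Proliferation genes overlapped between the stages. None of 45 mitosis genes passed limma's test in either direction; 3 were higher and 1 was lower at an unadjusted p under 0.05. Their median was -0.07, and the list mean was 6.78, 6.91, 6.80 and 6.75 in adenocarcinoma and 6.74, 6.88, 7.10 and 6.72 in dysplasia, with dysplasia replicate 3 the highest of the 8. Wild type lung lay at 5.98 to 6.16. Mki67, the standard marker of cycling cells, measured 7.42, 7.03, 7.38 and 7.58 in adenocarcinoma and 7.33, 7.60, 7.67 and 7.11 in dysplasia (log2 fold change -0.07 ± 0.25, adjusted p = 0.899; 0.00937 with quantile scaling), and Top2a had -0.19 ± 0.14 (adjusted p = 0.475). Of 42 DNA replication genes, 1 passed: Cdt1, a licensing factor, rose by 0.37 ± 0.10 and lost its call without adenocarcinoma replicate 3 or dysplasia replicate 1 or 2 (adjusted p = 0.0557 to 0.0586).

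Of 22 regulators of the G1 phase, 1 rose (4.55%) and 3 fell (13.6%), near the shares over all transcript clusters, with a median of -0.01. The 3 falls became 5 without dysplasia replicate 3. Cdk6, a kinase that opens the cell cycle, measured 8.20, 8.01, 8.22 and 8.13 in adenocarcinoma and 9.26, 9.05, 8.71 and 9.29 in dysplasia (log2 fold change -0.94 ± 0.10, adjusted p = 1.83e-05). Rb1, the retinoblastoma gene, and Gadd45b, a stress gene, fell, with log2 fold changes of -0.58 ± 0.14 and -0.63 ± 0.08. Cdkn2a, whose products p16INK4a and p19ARF restrain the cycle, rose by 0.40 ± 0.12, from 7.09, 7.33, 7.44 and 7.25 to 7.54, 7.60, 7.94 and 7.64 (adjusted p = 0.0346). That call was lost without adenocarcinoma replicate 2, 3 or 4 or dysplasia replicate 1, 2 or 4, at adjusted p of 0.0532 to 0.119. Ccnd1, cyclin D1, did not pass at 0.40 ± 0.13 (adjusted p = 0.0681). Its groups did not overlap, which held for 11.9% of transcript clusters with 1 symbol in the same direction.

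Some macrophage genes rose and others fell. Among 31 alveolar and lipid macrophage genes, 8 rose (25.8%) and 2 fell (6.45%), and the 8 became 5 without adenocarcinoma replicate 1 or dysplasia replicate 4. Acp5, an acid phosphatase of macrophages, measured 9.13, 9.09, 9.14 and 8.99 in adenocarcinoma and 7.99, 8.20, 8.43 and 8.21 in dysplasia (log2 fold change 0.88 ± 0.17, adjusted p = 0.00269), and Fabp4, a fatty acid carrier, rose by 0.90 ± 0.13 from a dysplasia mean of 4.46, below the lower quartile. The 2 falls of that list became 1 without any 1 lesion array or without unaltered replicate 1 or 4. Of 30 monocyte and interstitial macrophage genes, 3 rose (10.0%) and 4 fell (13.3%), beside 5.72% and 10.2% over all transcript clusters. The 2 lists were not tested against each other. C1qa, which encodes a chain of the complement starter C1q, rose from 8.57, 8.67, 8.57 and 8.53 to 9.62, 9.20, 9.52 and 9.30 (log2 fold change 0.82 ± 0.20, adjusted p = 0.0127). Ccr2, the receptor that draws monocytes into tissue, fell by 0.85 ± 0.15, and Lyve1, shared with lymphatic vessels, fell by 2.15 ± 0.15. The general macrophage gene Csf1r did not pass at -0.15 ± 0.10.

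Of the calls among dendritic and lymphocyte genes, all but 1 were falls. Of 15 dendritic cell genes, 7 fell (46.7%, beside 10.2% lower over all transcript clusters) and none rose. Cd209a measured 5.63, 6.58, 6.30 and 6.18 in adenocarcinoma and 7.88, 7.99, 8.10 and 8.02 in dysplasia (log2 fold change -1.83 ± 0.19, adjusted p = 9.25e-06), and Mgl2 and Clec9a, lectins of dendritic cells, fell, with log2 fold changes of -1.27 ± 0.17 and -0.83 ± 0.09. The 4 dysplasias lay above the wild type mean of 7.40 for Cd209a, and the tumours below it. Of 26 T and NK cell genes, 7 fell (26.9%). They include the NK receptor Ncr1 at -1.12 ± 0.19 and the granzyme Gzma at -1.07 ± 0.22, whose tumour means of 4.10 and 5.08 lay within or below the range of the lower quartiles, so that the size of both falls is limited by background. The defining gene Cd3e did not pass at -0.07 ± 0.11. Of 20 B and plasma cell genes, 6 fell (30%) and 1 rose (5%), and the 6 became 3 without dysplasia replicate 1 or 4. The riser was Sdc1, which the type II list holds too. Cxcl9, a chemokine induced by interferon gamma, rose by 0.92 ± 0.16, from 5.69, 6.09, 5.87 and 5.96 to 6.53, 7.05, 6.79 and 6.93, while Ifit2 and Gbp7, other interferon genes, fell, with log2 fold changes of -0.62 ± 0.10 and -0.74 ± 0.13. Of 29 interferon genes, 2 rose (6.9%) and 4 fell (13.8%), near the 5.72% and 10.2% over all transcript clusters. The 2 rises became 1 without adenocarcinoma replicate 2, 3 or 4 or dysplasia replicate 1, 2 or 4. The 4 falls became 2 without any 1 adenocarcinoma, without dysplasia replicate 1 or 4, or without non-transgenic replicate 2.

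Energy metabolism genes changed by member. Of 26 glycolysis and hypoxia genes, 7 rose (26.9%) and 4 fell (15.4%), beside 5.72% and 10.2% over all transcript clusters. Ankrd37, a target of the hypoxia factor HIF1, measured 8.05, 7.33, 7.95 and 8.03 in adenocarcinoma and 6.37, 6.37, 6.40 and 6.32 in dysplasia (log2 fold change 1.47 ± 0.16, adjusted p = 1.49e-05). Pfkl, the liver form of phosphofructokinase, rose from 8.61, 8.75, 8.71 and 8.70 to 9.72, 9.58, 9.62 and 9.64 (log2 fold change 0.95 ± 0.13). Adm, adrenomedullin, and the glucose transporter gene Slc2a3 fell, with log2 fold changes of -1.07 ± 0.23 and -0.91 ± 0.19. None of 36 oxidative phosphorylation genes passed limma's test; 6 were higher and none was lower at an unadjusted p under 0.05, and their median was 0.13. Alas2, the red cell form of the enzyme that begins haem synthesis, measured 6.06, 6.17, 6.19 and 6.18 in adenocarcinoma and 8.52, 8.43, 8.20 and 8.65 in dysplasia, a log2 fold change of -2.30 ± 0.10 and, at 4.2e-09, the smallest adjusted p of the genes named. Its means were 9.39 and 9.90 in unaltered and wild type lung. Of 9 red blood cell and haem genes, 2 fell (22.2%) and 1 rose (11.1%), and the rise was lost without dysplasia replicate 1 or 4.

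Of 34 detoxification genes, 16 fell (47.1%) and 3 rose. Aldh1a1, Aldh3a1, Cyp2f2 and Fmo2 are called genes that the club cell list holds too, and 8 of the 14 club cell genes fell between the same arrays, with a list median of -1.38. The part of club cells in the detoxification falls was not tested. Cyp4b1, a lung cytochrome, measured 8.18, 8.01, 8.24 and 8.14 in adenocarcinoma and 11.04, 10.78, 10.42 and 11.02 in dysplasia (log2 fold change -2.68 ± 0.13, adjusted p = 1.4e-08). Fmo1, a flavin monooxygenase, and Aldh1a1, which makes retinoic acid, fell, with log2 fold changes of -2.64 ± 0.18 and -2.24 ± 0.15. Other large falls were those of genes outside the list. Lrat, which stores retinol as esters, fell by 2.60 ± 0.25, and Pon1, an esterase, fell by 3.04 ± 0.37. Glp1r, the incretin receptor, fell from 10.18, 9.63, 8.53 and 10.12 to 7.01, 6.77, 7.01 and 6.82, with dysplasia replicate 3 the nearest to the tumours (log2 fold change -2.71 ± 0.27). Dpep1 and Pcolce2 fell, with log2 fold changes of -2.77 ± 0.14 and -2.66 ± 0.16. Cftr and Scnn1g, channels for chloride and sodium, fell, with log2 fold changes of -1.41 ± 0.11 and -1.28 ± 0.09, while Slc26a9, another chloride channel, rose by 0.90 ± 0.17. The tumour means of Cftr, 3.89, of Fibin, 4.96, and of Adm, 5.08, lay within or below the range of the lower quartiles, so the size of these falls is limited by background.

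Of 18 cholesterol synthesis genes, 9 fell, none rose and 9 did not pass, with log2 fold changes from -0.81 to 0.09 and a median of -0.41. Sqle, which makes squalene epoxide, measured 8.47, 7.98, 8.17 and 8.29 in adenocarcinoma and 9.13, 8.98, 8.88 and 9.17 in dysplasia (log2 fold change -0.81 ± 0.13, adjusted p = 0.000438). Sc5d, Nsdhl and Hsd17b7, enzymes of the late steps, fell, with log2 fold changes of -0.62 ± 0.09, -0.55 ± 0.07 and -0.52 ± 0.10, each without overlap between the groups. Genes of this pathway are switched on by SREBP2, which works at promoters together with the CCAAT-binding factor NF-Y. The 250 bases before the RefSeq start of these 3 genes (GRCm38.p6; chr9:42264301-42264550 minus strand, chrX:72918271-72918520 plus strand and chr1:169969206-169969455 minus strand) are shown because these members fell, with CCAAT or its reverse complement in capitals.
Sc5d: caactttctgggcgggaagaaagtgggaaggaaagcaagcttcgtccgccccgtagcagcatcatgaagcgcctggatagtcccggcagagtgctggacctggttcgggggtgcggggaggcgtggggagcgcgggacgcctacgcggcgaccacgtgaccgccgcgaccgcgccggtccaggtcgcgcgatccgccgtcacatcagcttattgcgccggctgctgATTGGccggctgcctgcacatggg
Nsdhl: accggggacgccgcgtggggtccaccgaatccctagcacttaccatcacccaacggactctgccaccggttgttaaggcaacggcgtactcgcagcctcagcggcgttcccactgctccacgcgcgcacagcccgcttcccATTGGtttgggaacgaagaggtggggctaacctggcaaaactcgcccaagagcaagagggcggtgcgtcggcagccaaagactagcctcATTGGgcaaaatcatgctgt
Hsd17b7: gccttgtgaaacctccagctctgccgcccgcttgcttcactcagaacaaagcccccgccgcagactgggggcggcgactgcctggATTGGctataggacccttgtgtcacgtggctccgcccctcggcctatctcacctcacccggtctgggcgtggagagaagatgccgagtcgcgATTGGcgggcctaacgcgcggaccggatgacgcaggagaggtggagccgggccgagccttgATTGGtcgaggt
Of the 18 genes, 14 had a promoter window, and 13 of these (92.9%) held CCAAT on either strand, against 33.8% of all 32851 windows. Of the 9 that fell, 7 had a window, and all 7 held it. These shares describe the windows and were not tested. Among 28 fatty acid and surfactant lipid genes, 7 rose (25%) and 3 fell (10.7%), beside 5.72% and 10.2% over all transcript clusters. The 7 became 4, 4, 2, 2 and 3 without adenocarcinoma replicates 1, 2 and 3 and dysplasia replicates 1 and 4. Gpam, which starts glycerolipid synthesis, fell by 1.32 ± 0.10, and Chka, choline kinase, rose by 0.47 ± 0.10.

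Of 32 WNT genes, 3 rose and 3 fell (9.38% each), beside 5.72% and 10.2% over all transcript clusters. The risers were Dkk2 and Sfrp1, which encode secreted WNT antagonists, at 1.102 ± 0.117 and 0.78 ± 0.17, and the ligand gene Wnt5a at 0.68 ± 0.19 (adjusted p = 0.0277). Wnt5a lost its call without adenocarcinoma replicate 1, 3 or 4 or dysplasia replicate 1, 2 or 3 (adjusted p = 0.0542 to 0.0723). Frzb, a WNT antagonist gene outside the list, measured 6.88, 5.86, 6.45 and 6.12 in adenocarcinoma and 4.15, 4.70, 4.70 and 4.46 in dysplasia (log2 fold change 1.82 ± 0.20, adjusted p = 1.49e-05). All 4 of its dysplasia values lay below the lower quartile of the scale, so the size of the rise is limited by background. Wnt2, a ligand made by lung fibroblasts, fell by 1.72 ± 0.25. Among 20 mesenchymal transition genes, 8 fell and 1 rose, with Zeb1 and Snai2, repressors of epithelial genes, at -1.12 ± 0.17 and -0.75 ± 0.16, and Tgfb2 at -0.79 ± 0.08. Cdh1 did not pass at -0.04 ± 0.08 (adjusted p = 0.788), with overlapping groups.

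Splicing is the subject of the study's title, and the levels of splicing regulators changed little. Of 39, 2 rose and 2 fell (5.13% each), beside 5.72% and 10.2% over all transcript clusters, with a median of 0.02. Qk, an RNA-binding protein of mesenchymal and endothelial cells, measured 10.53, 10.40, 10.36 and 10.51 in adenocarcinoma and 11.36, 11.13, 10.88 and 11.26 in dysplasia (log2 fold change -0.71 ± 0.09, adjusted p = 8.12e-05); a second, dim transcript cluster of Qk did not pass. Celf2 fell by 0.38 ± 0.07. Esrp1 and Esrp2, which set epithelial splice patterns, rose by 0.39 ± 0.12 and 0.31 ± 0.08. Esrp2 lost its call without dysplasia replicate 1 or 4 (adjusted p = 0.0509 to 0.0538), and Esrp1 lost it without adenocarcinoma replicate 1, 2 or 3 or dysplasia replicate 1, 2 or 4 (0.0543 to 0.105). Exon values, on which splicing itself would be read, were not analysed here.

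The remaining lists held few calls. Over all transcript clusters, 5.72% were higher and 10.2% lower in adenocarcinoma. Among 17 genes of the transitional alveolar state, which type II cells pass through on the way to type I, 3 rose (17.6%) and 1 fell (5.88%). Krt18, a keratin of simple epithelium, was at 0.55 ± 0.12 and Itgb6, an integrin chain that activates TGF-beta, at -0.67 ± 0.11. Of 17 genes of alveolar ion and water transport, 5 fell (29.4%) and 2 rose (11.8%, and 4 genes without non-transgenic replicate 5). The water channel gene Aqp1 was at -1.13 ± 0.13. Of 13 mast cell and basophil genes, 2 fell (15.4%), Gata2 and Kit, and 1 rose (7.69%). Kit stands in the capillary list too. The mast cell list's rise was lost without adenocarcinoma replicate 2, 3 or 4 or dysplasia replicate 1 or 4. Of 29 chemokines, 3 rose (10.3%) and 2 fell (6.9%). The rises became 1 without adenocarcinoma replicate 3 or dysplasia replicate 2, and the falls became none without adenocarcinoma replicate 2 or 4 or dysplasia replicate 1 or 4 and 1 without any other single lesion array. Of 14 circadian clock genes, 1 rose and 1 fell (7.14% each), and of 8 MHC class II genes 1 rose (12.5%). The clock rise was lost without adenocarcinoma replicate 1 or 3 or dysplasia replicate 1 or 4, and the clock fall without adenocarcinoma replicate 2 or dysplasia replicate 1. The MHC class II rise was lost without adenocarcinoma replicate 1, 3 or 4 or any 1 dysplasia. In the cardiac muscle list, which marks the muscle of pulmonary veins, Ankrd1 was the only call of 14, at -1.63 ± 0.26.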

How the data were processed

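RNA of laser-dissected lung tissue was amplified and hybridised to Affymetrix mouse exon arrays, 1 per sample. The authors deposited log2 values, made by RMA over core exons in Expression Console, per the labels. GCOS is named, with its version not given, per the submitters' processing notes. The array annotation's genome build is not given in the sources used here. The values ran from 1.13 to 14.3 and were not filtered.

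Gene names came from the platform annotation: of 23238 transcript clusters, 14939 had 1 symbol, 989 several and 7310 none. The 14939 stand for 14794 genes. By Entrez identifier 14884 matched RefSeq, and no symbol was updated. Where a listed gene had several transcript clusters, the brightest on average stood for it.

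Means of 4 groups were fitted to all 17 arrays in limma 3.58.1 (R 4.3.3), with the animal as a random block (correlation 0.245) because dysplasia and unaltered arrays share 4 animal labels. Tests were eBayes, two-sided, with p adjusted by Benjamini and Hochberg's method across the whole array and a threshold of 0.05. Labelled sex was left out because Y-linked genes went against it on 4 arrays. An error after ± is the standard error of a log2 fold change. Labels give each array of a group its own animal or animals. The 51 gene lists were read as counts and medians, without a test. The members and lists were chosen with earlier results of these data known. By rule, the genes that could be named were the 20 strongest rises and 20 strongest falls among calls without overlap (unnamed models, antigen receptor segments and small RNAs left out), up to 4 called members of each list, defining cell type markers and 30 genes of the model. The text prints a selection of them, made after their values were seen, and so was the choice of single array values. The counts over 186 called genes and over 410 sets of values leave out genes named only as defining markers, such as Cdh5.

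Data were simulated for adenocarcinoma against dysplasia with independent noise in each array and no effect of the animal. Among 23238 transcript clusters, 100 were changed by 1 and 100 by 0.5 (log2). Of these, 72% and 36% were recovered, with 4 false calls. The real comparison called many more, and recovery depends on the share that changes, so these rates hold for the simulated setting only. Promoter sequences are RefSeq's (GRCm38.p6). Alternatives covered scaling, filter, block, sex, age, array weights, threshold and leaving out arrays.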

Additional observations from a re-analysis of the deposited data

Results flagged for a closer look

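In 410 sets of 4 values, 1 per named gene and lesion group, 13 held a highest or lowest array set apart from the other 3 by more than Dixon's 95% criterion; chance gives about 1 in 20. In adenocarcinoma, replicate 2 stood low for the club cell gene Scgb1a1 (9.69), for Ankrd37 (7.33), for Muc1 (12.09) and for Lrat (5.03). Replicate 3 stood high for Ankrd22 (9.56), St8sia6 (10.89) and Ccl11 (6.26), and replicate 1 stood low for Lrg1 (10.83). In dysplasia, replicate 3 stood high for Spry2 (11.09) and low for Slc2a3 (6.42), and replicate 4 stood high for Ier3 (9.22) and Col6a2 (9.19) and low for Ccl11 (6.41).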

How the results depend on the processing

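No paired analysis was possible because adenocarcinoma and dysplasia share no animal label. The 2379 calls became 1390 at a threshold of 0.01, 329 with age as a covariate, 4357 with array weights and 1374 without the arrays that name 2 animals, and 1670 to 2640 leaving out 1 array at a time. The 855 rises became 374, 18, 1995 and 385 in the same 4 settings and 527 in arrays labelled male only, with 514 to 1039 leaving out 1 array. The 1524 falls became 311 with age, 2362 with array weights and 989 without the arrays naming 2 animals, with 1156 to 1638 leaving out 1 array. Rises and falls of at least 2-fold, 42 and 395, became 10 and 249 with age and 35 to 46 and 322 to 456 leaving out 1 array. Of 186 called genes named by the rule, 39 lost the call leaving out 1 array, 54 without the arrays naming 2 animals, 48 at a threshold of 0.01, 28 in arrays labelled male only and 127 with age, where Esrp1 also turned, to -0.00157. Age and stage cannot be told apart.

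Of the genes that did not pass, several changed sign. With age, Spry2, Dusp6, Myc, Sftpc and Fgg turned to -0.0767, -0.0805, -0.0417, -0.00389 and -0.569, and Cdh1 and Mki67 to 0.0101 and 0.427. Scaling turned Sftpc to -0.0541 (cyclic loess) and -0.0283 (quantile), Spry4 to 0.0258 and Mki67 to 0.00937 (quantile), and array weights turned Cdh1 to 0.00821. In arrays labelled male only Mki67 stood at 0.0329, and without the arrays naming 2 animals Fgg stood at -0.0162. Leaving out 1 array at a time gave -0.00506 to 0.0901 for Etv5, -0.073 to 0.0968 for Fgg, -0.0887 to 0.0686 for Spry4, -0.0848 to 0.0183 for Cdh1 and -0.15 to 0.0329 for Mki67. The cause was not tested. Signal near background limits the falls of genes whose tumour mean lies below 5.11.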
